A study of Mus musculus with 2 samples.

Results

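The mitochondrial genome genes were taken as every gene whose GENCODE symbol starts with mt-, which gave 37 of the 43346 genes in the deposited tables. They comprise 13 protein-coding genes, 2 ribosomal RNA (rRNA) genes and 22 transfer RNA (tRNA) genes, all on chromosome M of build mm10. The material was intestine from adult mice of the inbred strain C57BL/6J at 8 weeks of age. The labels give 1 group, large intestine, with 2 biological replicates, both described as pools of male and female littermates under a single donor record with health state unknown; no treatment or genetic change is given. RNA longer than 200 nt was depleted of rRNA, selected for poly(A) and sequenced as stranded paired reads of 76 nt. With 1 library against 1, no difference below has a replicate check and no p-value was computed; errors are given as the SD of the pair (n = 2).

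The mitochondrial genome is a small circular DNA that encodes core subunits of the respiratory chain and of the ATP synthase, together with the rRNAs and tRNAs that translate them inside the organelle. Both strands are transcribed as long precursors, from which tRNAs and their neighbours are cut apart, and most mRNAs then receive a poly(A) tail. The remaining subunits of the same complexes are encoded in the nucleus and imported. Intestinal epithelium and smooth muscle both depend on this pathway for ATP, and the genome is present in many copies per cell, so its transcripts are usually abundant in bulk RNA.

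The tissue label and the sex label were checked first, because they bear on every difference between the libraries. All 7 colon markers, Car1, Aqp8, Atp12a, Scnn1b, Scnn1g, Hoxa13 and Hoxd13, lay below 1 TPM in both libraries and summed to 0.3 and 0.32 TPM in replicates 1 and 2. Scnn1g, Hoxa13 and Hoxd13 were at 0 expected counts in both libraries. The 5 markers of small intestine enterocytes summed to 2012 and 5584 TPM, and those of Paneth cells, the antimicrobial cells of small intestine crypts, to 7503 and 10953 TPM. The X-inactivation transcript Xist had 17 expected counts in replicate 1 and 12563 in replicate 2, whereas the Y-linked gene Kdm5d had 1290 and 1, which goes against the labelled pooling of sexes. The libraries are therefore called replicate 1 and replicate 2 below, with no statement about large intestine. Depth was 50189619 and 58233142 expected counts, of which 2.92% and 4.43% fell on spike-in and control sequences.

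Several features of the mitochondrial sequences bear on how their reads can be counted, and the sequences that carry them are shown here. All sequences are GENCODE M21 transcripts on GRCm38 (mm10), written 5′ to 3′ as DNA. The reading frames of mt-Atp8 and mt-Atp6, subunits of the ATP synthase, overlap by 43 nt on the same strand (chromosome M, 7927 to 7969), shown in capitals in the whole of mt-Atp8 and the first 80 nt of mt-Atp6.
mt-Atp8: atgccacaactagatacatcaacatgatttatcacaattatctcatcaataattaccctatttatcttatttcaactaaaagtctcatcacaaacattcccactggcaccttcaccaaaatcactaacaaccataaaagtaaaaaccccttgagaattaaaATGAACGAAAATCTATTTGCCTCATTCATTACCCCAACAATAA
mt-Atp6: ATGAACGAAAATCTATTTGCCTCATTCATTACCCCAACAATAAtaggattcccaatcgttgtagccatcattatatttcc
The frames of mt-Nd4l and mt-Nd4, complex I subunits, share 7 nt (10167 to 10173), shown in capitals in the last 60 nt of mt-Nd4l and the first 60 nt of mt-Nd4.
mt-Nd4l: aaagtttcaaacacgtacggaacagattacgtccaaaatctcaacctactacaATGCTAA
mt-Nd4: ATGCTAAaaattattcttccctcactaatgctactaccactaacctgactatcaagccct
Each pair is read from a shared bicistronic mRNA in mammals, so a fragment across the overlap carries sequence of both genes. Both overlaps are shorter than a read of 76 nt, so no read lies wholly within them. The expected counts of mt-Atp8, 3663 in replicate 1 and 1274 in replicate 2, were whole numbers. Other neighbours on the genome overlap by 1 to 3 nt, except mt-Nd5 and mt-Nd6, which lie on opposite strands and overlap by 14 nt (13552 to 13565).

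The ends of the mRNAs also differ. Of the 13 reading frames, 10 end in a complete stop codon and 3 end in a lone T, which polyadenylation extends to a stop codon. The last 40 nt of these 3, mt-Co3, mt-Nd4 and mt-Cytb, are set beside those of mt-Co1, mt-Nd5 and mt-Nd6, with the terminal codon or partial codon in capitals.
mt-Co3: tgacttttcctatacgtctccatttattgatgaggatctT
mt-Nd4: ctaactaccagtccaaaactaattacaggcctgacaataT
mt-Cytb: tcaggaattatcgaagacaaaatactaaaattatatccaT
mt-Co1: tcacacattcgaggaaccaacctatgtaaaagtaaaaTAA
mt-Nd5: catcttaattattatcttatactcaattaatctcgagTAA
mt-Nd6: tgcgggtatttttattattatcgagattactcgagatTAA
At the 5′ end 9 of the 13 frames open with ATG, while mt-Nd2 opens with ATA, mt-Nd3 with ATT, mt-Nd5 with ATC and mt-Nd1 with GTG. The mRNAs ranged from 204 nt (mt-Atp8) to 1824 nt (mt-Nd5) and from 31.9% to 41.1% in GC content.

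The middle of the mitochondrial genome also has a nuclear copy. On chromosome 1, 7 annotated pseudogenes span 24611535 to 24616197 on the minus strand (mm10), a stretch of 4663 nt that follows the order of the genes from mt-Co1 to mt-Nd4. Of these, 5 match their mitochondrial counterpart without a mismatch over the aligned length: Gm28661 over 681 nt of mt-Co2, Gm10925 over 678 nt of mt-Atp6, Gm28437 over 783 nt of mt-Co3, Gm10222 over 294 nt of mt-Nd4l and Gm28439 over 876 nt of mt-Nd4. Gm28438 has 1 mismatch over 345 nt of mt-Nd3, and Gm29216 has 6 over the last 492 nt of mt-Co1 (positions 1054 to 1545), an identity of 98.8%. The first 150 nt of mt-Nd3 and Gm28438 show how little there is to tell them apart, with the mismatch in capitals.
mt-Nd3: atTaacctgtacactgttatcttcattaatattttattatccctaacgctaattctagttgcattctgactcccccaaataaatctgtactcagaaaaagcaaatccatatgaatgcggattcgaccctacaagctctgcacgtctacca
Gm28438: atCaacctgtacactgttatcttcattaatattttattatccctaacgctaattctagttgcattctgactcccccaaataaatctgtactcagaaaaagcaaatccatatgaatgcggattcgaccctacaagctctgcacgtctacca
The substitution is T3C, with the mitochondrial base first and positions counted from 1 at the mitochondrial gene's 5′ end. In mt-Co1 and Gm29216 the mismatches T1056A, C1057T, A1059G, A1060G, C1062A and A1066T all lie in the first bases of the copy, shown here over positions 1054 to 1096 of mt-Co1.
mt-Co1: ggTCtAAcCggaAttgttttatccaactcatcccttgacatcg
Gm29216: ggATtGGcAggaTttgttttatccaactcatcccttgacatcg
Beyond position 1066 the copy and mt-Co1 are the same letter for letter, so a read of 76 nt that lies wholly in the rest of the copy can be placed on either. In all, 15 genes outside the mitochondrial genome shared at least one stretch of 51 nt with a member, and in 7 of them, all in the chromosome 1 group, at least 50% of such stretches were shared.

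The 37 genes took 3.30% of all expected counts in replicate 1 and 2.13% in replicate 2, a mean of 2.71% ± 0.834 (SD, n = 2). Nearly all of it came from the 13 mRNAs, at 3.23% and 2.07%. By complex, the 3 subunits of cytochrome c oxidase (complex IV, the enzyme that reduces oxygen) held 2.33% and 1.55%, the 7 subunits of complex I (NADH dehydrogenase) 0.428% and 0.213%, mt-Cytb of complex III 0.311% and 0.187%, and the 2 ATP synthase subunits 0.164% and 0.122%. In each of these 4 groups the share of counts was lower in replicate 2. In TPM, which corrects each gene for length and scales every library to the same total, the 37 genes reached 6.33% and 3.10%, a larger share than by counts in both libraries. Of the 63308 and 31000 TPM behind these shares, mt-Atp8 alone held 22127 and 6869 TPM, from 3663 and 1274 counts.

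**Figure D1:**
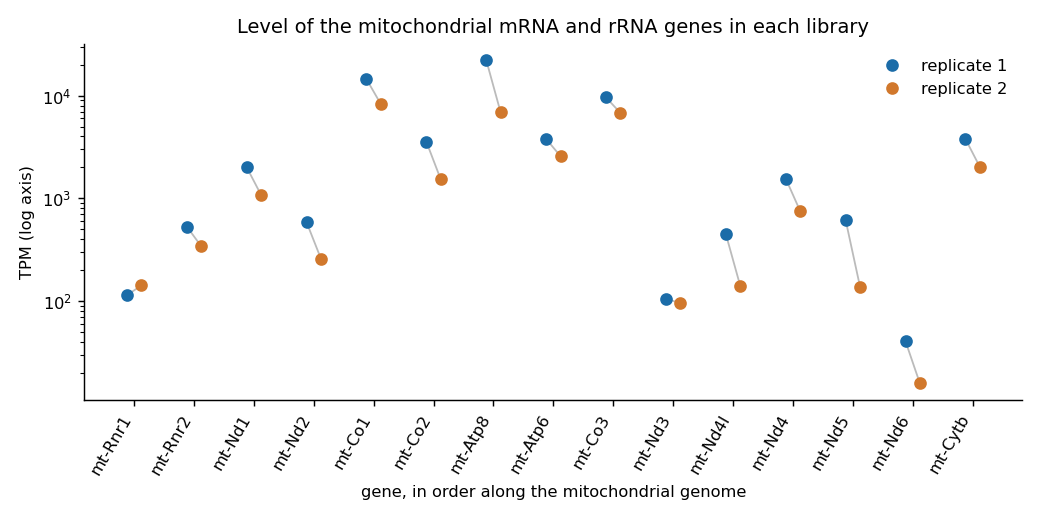
TPM (log axis) of the 13 mRNA and 2 rRNA genes in order along the mitochondrial genome, 1 point per library joined by a line. Replicate 1 lies above replicate 2 for every gene shown except mt-Rnr1, which stood at 114 and 142 TPM.

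Among the complex IV subunits, mt-Co1, the catalytic subunit (ENSMUSG00000064351.1, 5328 to 6872, plus strand), had 852546 counts and 14455 TPM in replicate 1, and 635624 counts and 8264 TPM in replicate 2. This gene alone held 51.4% of the counts of the 37 genes in each library. mt-Co3, a core subunit beside it (8607 to 9390), had 242905 counts and 9598 TPM in replicate 1, and 223305 counts and 6769 TPM in replicate 2. mt-Co2, which carries the copper centre that accepts electrons from cytochrome c (7013 to 7696), had 74273 counts and 3557 TPM in replicate 1, and 41675 counts and 1531 TPM in replicate 2. By mean TPM mt-Co1 ranked 11, mt-Co3 14 and mt-Co2 47 of all 43346 genes.

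Complex III has 1 mitochondrial subunit, the cytochrome b gene mt-Cytb (14145 to 15288), with 155998 counts and 3783 TPM in replicate 1, and 108972 counts and 2027 TPM in replicate 2. Of the ATP synthase genes, mt-Atp6, whose product lines the proton channel (7927 to 8607), had 78476 counts and 3782 TPM in replicate 1, and 69526 counts and 2571 TPM in replicate 2. mt-Atp8, a small membrane subunit (7766 to 7969), had 3663 counts and 22127 TPM in replicate 1, and 1274 counts and 6869 TPM in replicate 2. mt-Atp8 thus had the highest TPM of the 13 in replicate 1, and rank 5 of all genes by mean TPM, with 4.67% of the counts of its overlapping partner mt-Atp6 in replicate 1 and 1.83% in replicate 2.

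The complex I subunits spread most widely. mt-Nd1, which lines the quinone site (2751 to 3707), was the highest, with 2008 and 1081 TPM in replicates 1 and 2. mt-Nd4, a proton-pumping subunit (10167 to 11544), was at 1557 and 754 TPM, and the related pump subunits mt-Nd2 (3914 to 4951) and mt-Nd5 (11742 to 13565) were at 586 and 259 TPM and at 614 and 138 TPM. The small subunits mt-Nd4l (9877 to 10173) and mt-Nd3 (9459 to 9806) were at 449 and 141 TPM and at 106 and 95.5 TPM. mt-Nd6, the only mRNA encoded on the minus strand (13552 to 14070), was the lowest of the 13 at 40.6 TPM in replicate 1 from 551 counts and 15.8 TPM in replicate 2 from 280 counts. In every complex I subunit replicate 1 had the higher TPM, by a range that runs from mt-Nd3 (1.10-fold) to mt-Nd5 (4.44-fold).

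The order of the 13 genes depended on which length was used. The deposited tables divide by an effective length, the number of start positions a fragment can take, which was 211.91 to 212.5 nt shorter than the annotated length for the 13 mRNA and rRNA genes of at least 300 nt. For mt-Atp8, at 204 nt, it came to 3.74 nt in replicate 1 and 3.21 nt in replicate 2, so each count was worth far more TPM than in any other member with counts. Per annotated length, in counts per kilobase and per 1000000 counts of the library, mt-Atp8 fell from the first to the tenth place of 13, at 358 in replicate 1 and 107 in replicate 2, with a mean of 233. On that scale mt-Co1 led with a mean of 9030, followed by mt-Co3 at 5532, mt-Cytb at 2176, mt-Atp6 at 2025, mt-Co2 at 1605, mt-Nd1 at 1106, mt-Nd4 at 897, mt-Nd2 at 307 and mt-Nd5 at 299.7. mt-Nd4l, mt-Nd3 and mt-Nd6 closed the order at 76.7, 36.6 and 15.2.

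The spans of neighbours in this order, taken over the 2 libraries, were not all separate. Replicate 1 values of mt-Cytb, mt-Atp6 and mt-Co2 were 2717, 2296 and 2164, and those of replicate 2 were 1636, 1753 and 1046, so these 3 genes overlapped and the first 2 changed places between the libraries. mt-Nd1 (1378 and 834) and mt-Nd4 (1162 and 632) overlapped as well, as did mt-Nd2 (411 and 204), mt-Nd5 (478 and 121) and mt-Atp8 (358 and 107). Within each library, however, mt-Co2 was below mt-Cytb and mt-Atp6, and mt-Nd1 was above mt-Nd4. mt-Atp8 was below mt-Nd2 and mt-Nd5 in both libraries, while mt-Nd2 and mt-Nd5 changed places. The span of mt-Co1 (10994 and 7065) did not overlap that of mt-Co3 (6173 and 4891), with the chromosome 1 copies left out. From the highest to the lowest of the 13, the level per annotated length spanned 519.8-fold in replicate 1 and 763-fold in replicate 2. All of the 13 but mt-Nd6 are encoded on the plus strand.

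**Figure D2:**
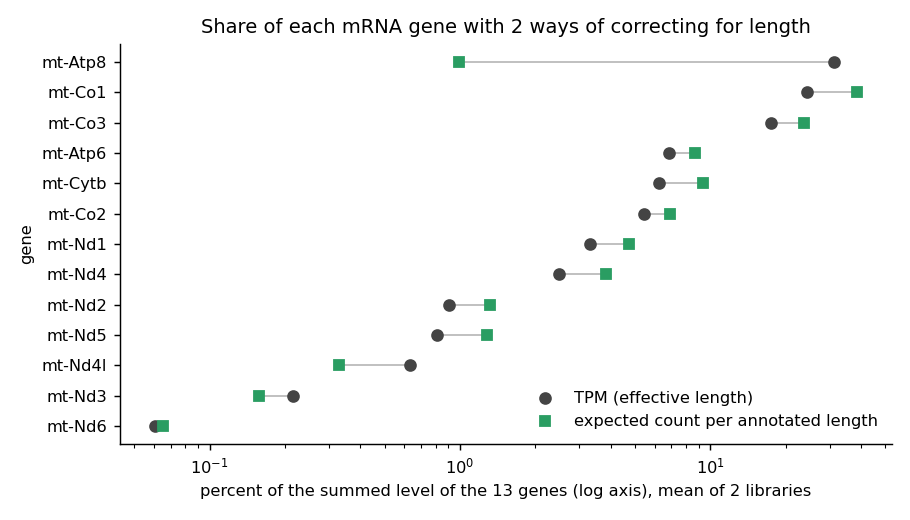
Percent of the summed level of the 13 mRNA genes (log axis, mean of both libraries) held by each gene in TPM, which uses the effective length, and by counts per annotated length. mt-Atp8 goes from 31.1% to 0.996%, while mt-Co1 goes from 24.4% to 38.7%.

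The minus-strand gene mt-Nd6 was set against the other mRNAs on the annotated-length scale. Its level was 21.2 counts on this scale in replicate 1 against a median of 1270 for the other 12 mRNAs, and 9.26 against 733 in replicate 2, which is 1.67% and 1.26%. These are levels in RNA selected for poly(A), and the part of that selection in the level of mt-Nd6 was not tested. No source used here gives the strand setting of the counting, so reads from antisense transcription cannot be told apart from those of mt-Nd6 in these values. The 14 nt shared with mt-Nd5 are shorter than a read of 76 nt, and the expected counts of mt-Nd6, 551 and 280, were whole numbers.

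Of the rRNA genes, mt-Rnr1, the small ribosomal subunit RNA (70 to 1024), had 3746 counts and 114 TPM in replicate 1, and 6080 counts and 142 TPM in replicate 2. mt-Rnr2, the large subunit RNA (1094 to 2675), had 32228 counts and 532 TPM in replicate 1, and 27074 counts and 342 TPM in replicate 2. mt-Rnr1 was the only one of the 15 members with counts whose TPM was higher in replicate 2, and the rRNAs were counted at 2.22% and 2.75% of the mRNA counts. Per annotated length, mt-Rnr2 stood 5.19-fold above mt-Rnr1 in replicate 1 and 2.69-fold in replicate 2. Mitochondrial rRNA outnumbers the mRNAs in most cells; here the RNA was depleted of rRNA and selected for poly(A), and these levels are not a measure of the rRNA content of the tissue.

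All 22 tRNA genes were listed at 0 expected counts and 0 TPM in both libraries. Their annotated lengths ran from 59 to 75 nt, all had an effective length of 0, and RNA of up to 200 nt had been removed, so a tRNA could not have received a count and no upper limit can be set. They lie between the mRNAs and rRNAs and punctuate the precursor transcript, 14 on the plus and 8 on the minus strand. The shortest and the longest, mt-Ts2 (11613 to 11671) and mt-Tl1 (2676 to 2750), are shown because each is no longer than a single read of 76 nt.
mt-Ts2: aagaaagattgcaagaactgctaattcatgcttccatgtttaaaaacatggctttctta
mt-Tl1: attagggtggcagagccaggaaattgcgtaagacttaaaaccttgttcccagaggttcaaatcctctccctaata
The set holds mt-Tf, mt-Tv, mt-Tl1, mt-Ti, mt-Tq, mt-Tm, mt-Tw, mt-Ta, mt-Tn, mt-Tc, mt-Ty, mt-Ts1, mt-Td, mt-Tk, mt-Tg, mt-Tr, mt-Th, mt-Ts2, mt-Tl2, mt-Te, mt-Tt and mt-Tp, where the letter after T is the amino acid.

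The chromosome 1 copies shown above carried many reads. The 11 listed pseudogene copies took 0.664% of counts in replicate 1 and 0.364% in replicate 2, of which the 4 outside chromosome 1, Gm10221, Gm13339, Gm13340 and Gm13341, held 151 and 202 counts in all. Gm10222, the copy of mt-Nd4l, had 19404 counts in replicate 1 and 6287 in replicate 2, against 1692 and 689 in mt-Nd4l itself. The copy therefore held 92.0% and 90.1% of the pair's counts. Gm28438 likewise held 87.5% and 86.1% of the counts of its pair with mt-Nd3, at 4453 and 4627 counts. At the other end Gm28439 held 1.63 and 5.76 counts beside 80344 and 50719 in mt-Nd4.

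Among the copies without a mismatch, the share given to the copy differed between the libraries for some but not for all. Gm10222 and Gm28439 took similar shares in both, 92.0% and 90.1% for the first and 0.00203% and 0.0114% for the second. Gm28661 took 30.6% of its pair with mt-Co2 in replicate 1 and 57.1% in replicate 2, at 32699 and 55479 counts. Gm28437 took 31.7% of its pair with mt-Co3 in replicate 1 and 10.4% in replicate 2, at 112481 and 25989 counts. Gm10925 took 25.8% and 13.5% of its pair with mt-Atp6, at 27350 and 10860 counts. Gm29216, which differs from mt-Co1, took 13.8% and 14.6%, at 136896 and 108387 counts, close to equal in both libraries.

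The deposited tables carry their own measure of this ambiguity. The posterior SD of the count was 61597 for mt-Co3 in replicate 1 and 30342 in replicate 2, around posterior mean counts of 195854 and 171618, and its deposited TPM bounds ran from 4975 to 11820 in replicate 1 and from 3837 to 6637 in replicate 2. The bounds surround the posterior mean TPM of all 15 members with counts, but the TPM printed here lies outside them in at least 1 library for 5, mt-Nd1, mt-Co1, mt-Co3, mt-Nd4 and mt-Cytb; mt-Co3 in replicate 2, at 6769 TPM, is above its upper bound. For mt-Co2 the posterior SD was 10263 and 12358, and for mt-Atp6 12270 and 7400, whereas for mt-Co1 it was 408 and 384 on a far higher count. It was 0 in both libraries for 7 members, mt-Nd1, mt-Nd2, mt-Atp8, mt-Nd6, mt-Cytb, mt-Rnr1 and mt-Rnr2. The expected counts point the same way: none of the 7 members with a chromosome 1 copy had a whole-number count within 0.02 in both libraries, but in 5 of the 7 pairs the sum of member and copy was whole in both. The sums for mt-Nd4l and Gm10222, for example, were 21096 and 6976 counts, and those for mt-Co3 and Gm28437 were 355386 and 249294.

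**Figure D3:**
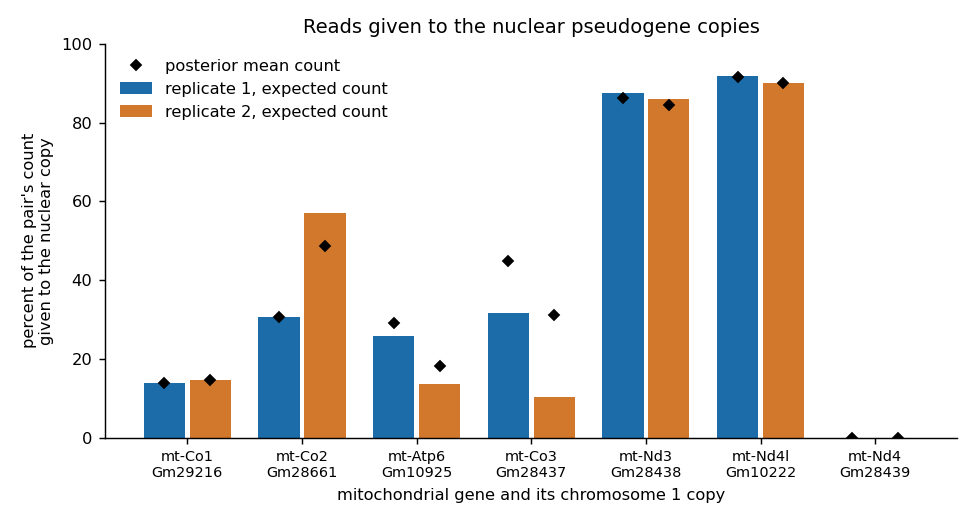
Percent of the counts of each mitochondrial gene and its chromosome 1 copy that was given to the copy, with bars for the deposited expected counts in each library and diamonds for the deposited posterior mean counts. The copies of mt-Nd3 and mt-Nd4l hold over 80% in both libraries, and the copies of mt-Co2 and mt-Co3 differ most between the libraries.

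Summing each member with its copy moved several genes in the order per annotated length. mt-Nd4l rose from a mean of 76.7 to 909 counts on this scale, beside 897 for its bicistronic partner mt-Nd4. By library the sum for mt-Nd4l per annotated length was above mt-Nd4 in replicate 1, at 1415 against 1162, and below it in replicate 2, at 403 against 632. In TPM, which uses the effective length, the sum for mt-Nd4l was above that for mt-Nd4 in both libraries. It stood at 5788 against 1557 TPM in replicate 1 and at 1475 against 754 TPM in replicate 2. mt-Nd3 rose from 36.6 to 278, and mt-Co2 from 1605 to 2778, above mt-Cytb at 2176. mt-Co1 at 10515 and mt-Co3 at 7246 still led, and mt-Nd6 was still last. In these sums the spans of mt-Co1 (12760 and 8270) and mt-Co3 (9032 and 5460) over the 2 libraries did overlap, although mt-Co1 was above mt-Co3 within each library. Whether the reads came from mitochondrial or nuclear transcripts was not tested, and this sum was chosen after the values had been seen.

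The libraries were next compared gene by gene, as log2((TPM + 1) of replicate 2 / (TPM + 1) of replicate 1), a scale that understates differences of low genes. Over 13512 genes at a mean of 1 TPM or more, the median of this ratio was −0.14, with 5th and 95th percentiles of −0.96 and 0.46. The 13 mitochondrial mRNAs had a median of −1.05, and 12 of them lay below the median of all genes. At least 2-fold higher in replicate 1 were 7 of the 13, against 4.46% of all genes tested, and none was 2-fold higher in replicate 2, against 1.18%. On shares of expected counts, where the median of all genes was 0.01, the median of the 13 was −0.88, 6 of the 13 were 2-fold higher in replicate 1 against 2.65% of all genes, and none was 2-fold higher in replicate 2 against 1.14%, with 3.79% of all genes 2-fold apart in either direction. In bulk tissue, fewer cells of a kind and less RNA per cell cannot be told apart.

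The size of the difference varied along the genome. mt-Nd5 had the largest ratio, −2.14, from 43793 counts in replicate 1 and 12864 in replicate 2. It is the longest of the mRNAs and has no chromosome 1 copy in the list. mt-Atp8 followed at −1.69, mt-Nd4l at −1.67, mt-Nd6 at −1.31, mt-Co2 at −1.22, mt-Nd2 at −1.18 and mt-Nd4 at −1.05. mt-Cytb at −0.90, mt-Nd1 at −0.89 and mt-Co1 at −0.81 were also lower in replicate 2, by less than 2-fold, as were mt-Atp6 at −0.56 and mt-Co3 at −0.50. mt-Nd3 lay at the median of all genes, at −0.14, and its sign changed to 0.02 on shares of expected counts. Within complex IV and complex I the members therefore differed from each other, and mt-Co1 exceeded mt-Nd5 per annotated length by 23.0-fold in replicate 1 and by 58.3-fold in replicate 2.

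For the members with copies, some of these ratios rested on how reads were divided. mt-Co2 alone stood at −1.22 and its copy at 0.38, while the pair summed to −0.52, so its 2-fold difference was not present in the sum. mt-Co3 alone stood at −0.50 and its copy at −2.49, with −0.89 for the pair. mt-Atp6 went from −0.56 to −0.78, mt-Nd3 from −0.14 to −0.30, mt-Nd4l from −1.67 to −1.97 and mt-Co1 from −0.81 to −0.77. With the copies added the median of the 13 was −0.90, and 6 of the 13 were at least 2-fold higher in replicate 1, against 4.46% of all genes tested.

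**Figure D4:**
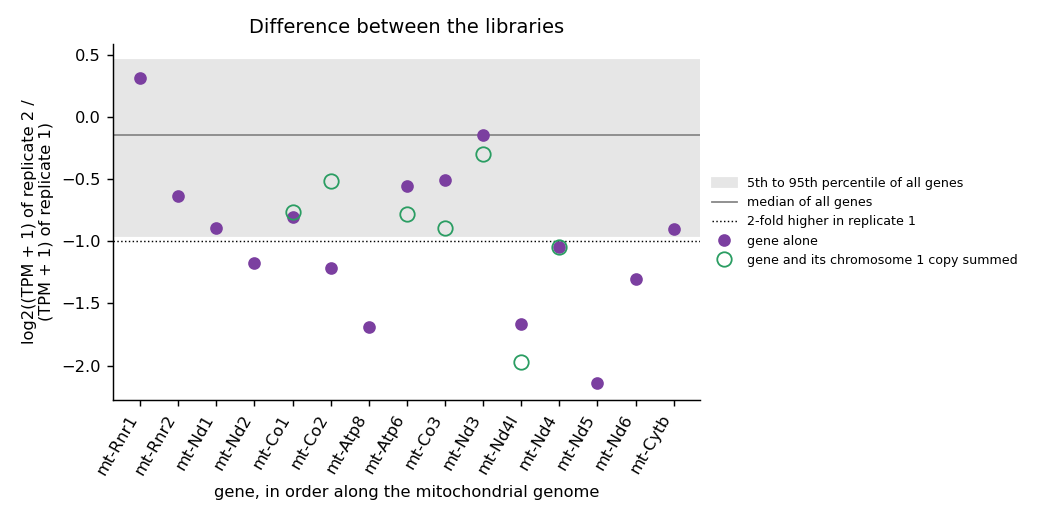
Log2 ratio of TPM + 1 between the libraries (below 0 is higher in replicate 1) for the 15 members with counts, alone as filled points and summed with the chromosome 1 copy as open circles. The grey band runs from −0.96 to 0.46 and marks the 5th to 95th percentile of the 13512 genes; mt-Nd5 is the lowest point at −2.14, and mt-Co2 moves from −1.22 to −0.52 when summed.

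The nuclear genes of the same pathway lay closer to equal levels in both libraries. The 75 nuclear subunits of complexes I to IV, complex II included, and of the ATP synthase summed to 33986 and 33508 TPM, and their ratios ran from −0.52 to 0.31 with a median of −0.02 (0.13 on shares of expected counts). None of the 75 was 2-fold apart, against 5.64% of all genes tested in either direction. By complex the medians were 0.00 for the 36 genes of complex I, −0.11 for 4 of complex II, −0.07 for 9 of complex III, −0.02 for 11 of complex IV and 0.00 for 15 of the ATP synthase. The median of the 13 mitochondrial mRNAs minus that of the nuclear subunits was −1.03 on the log2 scale, and ran from −1.03 to −0.93 over the 7 alternatives tried for both.

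The most abundant nuclear partners show the same in single values. In complex IV, Cox6a1 was at 2668 and 2543 TPM and Cox8a at 1740 and 1815 TPM in replicates 1 and 2. In complex III, Uqcr11 was at 1855 and 2028 TPM and Uqcr10 at 1147 and 1090 TPM, and in the ATP synthase the catalytic subunits Atp5b and Atp5a1 were at 3228 and 2675 TPM and at 1737 and 1685 TPM. Ndufa3 of complex I stood at 596 and 675 TPM with Ndufb8 at 479.5 and 500.2 TPM, and Sdhd and Sdhb of complex II, which has no mitochondrially encoded subunit, at 340 and 303 TPM and at 280 and 269 TPM. The largest of these 10 differences was 1.21-fold, in Atp5b.

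The nuclear genes that make and use mitochondrial RNA also lay close to equal levels in both libraries. Of the 108 at a mean of 1 TPM or more, 24 lay below the median of all genes. For transcription and replication of the genome, 11 of 13 genes reached a mean TPM of 1 and had a median ratio of −0.05; Polrmt, the mitochondrial RNA polymerase, was at 47.95 and 46.64 TPM and Polg, the DNA polymerase, at 26.3 and 23.8 TPM. For processing and stability of mitochondrial RNA the median of 19 genes was −0.05, with Fastk at 181 and 151 TPM and Tbrg4 at 104 and 90.4 TPM. For the mitochondrial ribosome, 78 of 82 protein genes reached a mean TPM of 1 and had a median of 0.04, with Mrpl52 at 232 and 277 TPM and Mrps24 at 142 and 123 TPM. None of these 108 genes was 2-fold apart, against 5.64% of all genes tested in either direction. The 3 lists together summed to 4193 and 4325 TPM, with a median of −0.01.

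**Figure D5:**
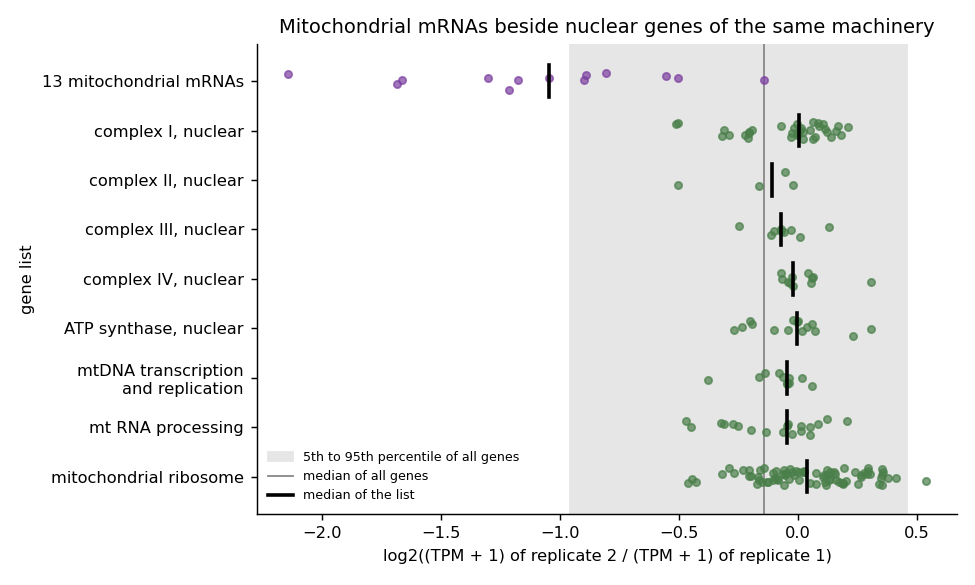
Log2 ratio of TPM + 1 between the libraries, 1 point per gene at a mean of 1 TPM or more, for the 13 mitochondrial mRNAs and 8 lists of nuclear genes, with black bars for list medians. The mitochondrial mRNAs centre on −1.05, and the medians of the nuclear lists lie between −0.11 and 0.04.

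Other measures moved between the libraries as well. Of the 4 plasma cell markers all 4 were higher in replicate 1, with a median ratio of −0.84 and a summed level of 55123 against 30869 TPM, and of 5 nuclear or noncoding RNAs the 4 that reached a mean of 1 TPM were all higher in replicate 1, with a median of −0.76; Malat1 was at 103 and 49.5 TPM and Rn7sk at 12103 and 6674 TPM. The 6 epithelium markers had a median of −0.33 and summed to 6657 and 5778 TPM, from Vil1, the microvillus protein villin, at 794 and 381 TPM (−1.06) to Krt18, a keratin, at 166 and 211 TPM (0.35); Krt19 was at 0.03 and Krt8 at −0.16. The 6 smooth muscle markers had a median of 0.19 and summed to 3098 and 3660 TPM, although Myh11, smooth muscle myosin, went the other way at 89.6 and 46.3 TPM (−0.94). The 6 heart and skeletal muscle markers summed to 35.3 and 69.6 TPM, and all 5 Paneth cell markers were higher in replicate 2. The small intestine markers divided by region: Lct, Sis and Apoa4 were higher in replicate 1 (Apoa4 at 1094 and 91.1 TPM), and Fabp6 and Slc10a2, typical of ileum, in replicate 2 (Fabp6 at 477 and 5279 TPM). The part of each of these in the difference of the mitochondrial mRNAs was not tested.

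Transcript length and base composition of nuclear genes were set beside the mitochondrial values after these had been seen. Over 2457 nuclear genes with a leading transcript over 4000 and up to 8000 nt the median ratio was −0.35, against 0.00 for the 1820 genes over 500 and up to 1000 nt and −0.02 for the 3302 genes over 1000 and up to 2000 nt, the range that holds mt-Nd5, mt-Co1, mt-Nd4, mt-Cytb and mt-Nd2. Over the 825 genes over 200 and up to 500 nt, the range of mt-Atp8, mt-Nd4l and mt-Nd3, the median was −0.09, and 15.0% were at least 2-fold higher in replicate 1, a larger share than over all genes tested. By GC content the medians were −0.18 for 21 genes over 30% and up to 36%, −0.25 for the 828 genes over 36% and up to 42%, and −0.08 for the 753 genes over 60%. The part of length and base composition in the difference of the mitochondrial mRNAs was not tested.

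A contig list and a junction list of the whole series, both on the older build mm9, also cover the mitochondrial chromosome, and the deposited contig level is the authors' own value. Of 647881 contigs 11 lay on chromosome M, 8 on the plus and 3 on the minus strand, and 4 plus-strand contigs had a level over 50. These ran from 20 to 1024 at level 81.4, from 1037 to 6866 at level 2000, from 10742 to 11605 at level 917 and from 11716 to 16299 at level 612 (mm9), and the second ranked 15 of all contigs. The next contig after 6866 started at 7879, and the 7 contigs from there to 9985 had levels of 0.092 to 0.692 (mm9). Their deposited reproducibility values ran from 0 to 0.36, against 0 for each of the 4 contigs over level 50. The part of reads shared with the chromosome 1 copies in these low levels was not tested. Plus-strand contigs covered 13948 nt in all, and the 3 minus-strand contigs 690 nt at levels of 0.149 to 0.272. The minus-strand contigs lay between 9259 and 9985 (mm9), and none was listed beyond that. The minus-strand gene mt-Nd6 lies from 13552 to 14070 (mm10).

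Mitochondrial genes have no introns, and few reads were listed as spliced there. Of 446811 junctions 317 lay on chromosome M, with 1089 of 43037344 spanning reads (0.00253%), and 198 of the 317 had 1 read. Still, 10 had at least 10 reads, led by a junction from 6458 to 6518 (mm9, 61 nt) with 248 reads and another from 6451 to 6517 with 166. The 28 junctions that lay between 6446 and 6525 (mm9), a window chosen after the values were seen, held 551 reads or 50.6% of those on the chromosome. On mm10 the same positions fall in mt-Co1 (5328 to 6872), which held 51.4% of the counts of the 37 genes. The part of the level of mt-Co1 and of its copy Gm29216 in these junction reads was not tested. Each of the 2 leading junctions had reads in both read-count fields of the list, 134 and 114 for the first and 89 and 77 for the second, and no source used here says which replicate a field stands for.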

How the data were processed

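For each library the authors deposited quantification tables per gene and per transcript (mm10, GENCODE M4, per the accompanying notes); no source used here names the aligner or the quantification program. Expected counts were estimated by the authors and need not be whole. TPM and FPKM values were deposited per effective length. Posterior mean counts, a posterior SD per count (deposited as a score) and TPM bounds (a deposited signal column, level not stated) come from the same tables. Each transcript's percent of its gene was deposited too and not used, since the 37 members have 37 transcripts. Spanning reads per junction were deposited as whole counts, and positions on mm9 were kept apart from those on mm10.

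Symbols came from a supplied name table and positions and sequences from GENCODE M21, matched on the identifier without version; the 37 symbols are the same in both, and 42462 genes had a symbol. The ratio used a pseudocount of 1 TPM, a minimum mean TPM of 1 and a 2-fold threshold. Named were all 37 members, the 2 highest genes of each nuclear list and any gene of those lists 2-fold apart (there was none); some markers are named to check the label or to show the range of a list, the latter after their values were seen. All 162 entries of 16 lists were matched; mitochondrial ribosome genes were taken by symbol. The members and lists were chosen with earlier results of these data known. Copies were aligned without gaps. Alternatives included TMM (edgeR 4.0.16) and size factors (DESeq2 1.42.0) on rounded expected counts in R 4.3.3. Tables and figures were made with Python 3.11.15, pandas 2.3.3, numpy 2.4.6 and matplotlib 3.10.9. The ratio step was tested on simulated data, with ratios centred on the unchanged genes and the same effective length in both libraries. No reads shared with copies were simulated, so that test does not cover the offset of all genes or the division of reads. Counts carry counting error, and with 2 libraries only their spread can be given. The series' alignments and signal tracks were not used here.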

Additional observations from a re-analysis of the deposited data

How the results depend on the processing

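Of 81 alternative values 6 changed sign. The 37 genes held 2.71% of counts and 4.72% of TPM, with 2.13% and 3.30% in the single libraries. The share of mt-Atp8 among the 13 mRNAs was 28.9% by TPM (mean of the shares in each library), 0.924% per annotated length and 0.733% with the chromosome 1 copies added; that of mt-Co1 was 25.1%, 38.6% and 36.1%. rRNA over mRNA was 2.48% by counts and 1.31% by TPM.

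The median ratio of the 13 mRNAs was −1.05, and −0.88 with FPKM, −0.95 with posterior means, −1.08 with TPM rescaled after removing the 37 genes and spike-ins, −0.87 with TMM and with DESeq2 size factors, −0.97 without genes under 400 nt and −0.90 with the copies added. The number at least 2-fold higher in replicate 1 ran from 5 to 7, with the 5 reached by leaving out mt-Atp8, mt-Nd4l and mt-Nd3 as genes under 400 nt. mt-Co2 was no longer 2-fold higher with posterior means or with the copies added, and mt-Nd4 no longer with FPKM, TMM or DESeq2. The median of nuclear oxidative phosphorylation genes was −0.050 after rescaling, 0.15 with FPKM, 0.14 with TMM and 0.15 with DESeq2; that of the genes of mitochondrial gene expression was −0.043, 0.14, 0.15 and 0.16, and 0 with no filter. FPKM, TMM and DESeq2 move the median of all genes from −0.14 to 0.00, 0.01 and 0.02. No paired analysis was possible because there is 1 group.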
